A study of Mus musculus with 12 samples.

Results

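The 255 probes described here were detected on all 6 mammary tumor arrays and were not detected on 5 of the 6 mammary gland arrays of one mouse expression study. They are 0.563% of the 45281 probes on the array and 1.59% of the 16042 probes detected on all 6 tumors. A probe counted as detected at a detection p under 0.01. That p is the share of negative-control probes on the same array that read at least as bright, and it moves in steps of 1 over 936. The remaining gland, wild-type control 1, was left out of the rule and serves below as an array that the choice of members did not use. The members were thus chosen by their own measured detection p-values on tumors and glands, so their tumor and gland levels are given as a description, with no test.

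RNA came from female FVB mice, 10 weeks old, in 4 groups of 3 samples. Control tumors came from PyMT mice, in which the polyoma middle T antigen drives tumors of the mammary gland, and hyperglycemic tumors came from PyMT/PANIC mice. Control glands came from wild-type mice and hyperglycemic glands from PANIC-ATTAC mice, so the tumor controls carried PyMT and the gland controls carried no transgene. PANIC-ATTAC is an inducible transgene that kills the insulin-producing beta cells of the pancreas and so raises blood glucose. All hyperglycemic samples and no control sample carried it, so the effects of high blood glucose and of the transgene cannot be told apart. The promoter behind PyMT, the agent that induced beta cell loss and whether the 3 samples of a group were separate animals are not given in the sources used here. P-values here therefore reflect variation among these samples, part of which may be technical. Tumors filled 1 BeadChip and glands the other, and the effects of BeadChip and of tissue cannot be told apart. On both BeadChips the control arrays came before the hyperglycemic arrays, and the effects of array position and of condition cannot be told apart.

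The mammary gland of an adult mouse outside pregnancy is mostly fat, with sparse ducts of luminal and myoepithelial cells. Polyoma middle T tumors replace much of that fat with dense epithelium. In bulk RNA, fewer cells of a type and less RNA per cell cannot be told apart. The labelled tissues were checked against marker genes by summed raw signal. The epithelial markers summed to between 8191 and 11695 in the tumors and between 2553 and 3902 in the 5 glands, with Epcam not detected on any array. The adipocyte markers summed to between 1907 and 5328 in the tumors and between 13939 and 22618 in the 5 glands, with Fabp4 not detected on any array. Wild-type control 1 read 8251 on the epithelial markers, inside the tumor range, and 10096 on the adipocyte markers, between the tissues. It also carried fewer beads per probe, with a mean of 37.1 against 43.8 to 44.7 on the other 11 arrays. The part of these differences in the results below was not tested. None of the genes on the 13 cell-type marker lists was a member.

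A gene name from the platform annotation was available for 209 of the 255 members, which stood for 193 genes, and 46 members had no name there. In all, 14 genes were hit by more than 1 member probe, among them the vasoactive intestinal peptide receptor Vipr1 and the urate and sugar transporter Slc2a9 with 3 each. Some named members were grouped by role as secreted proteins, serine proteases, skeletal matrix proteins or transporters. Others were grouped as transcription regulators, ligands and receptors, cell division proteins or metabolic enzymes. These 8 role groups were drawn up after the values were seen and hold 72 genes with 82 probes, while 121 member genes were placed in none.

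A run of tissue kallikrein genes was among the members, namely Klk1b1, Klk1b26 and Klk1b11. These secreted serine proteases of the mouse are best known from the salivary glands, and Klk1b26 varied more between the tumors than nearly all other members. The genes lie in one cluster on chromosome 7 and arose from one another by duplication. Their promoters are shown because their signals moved together across the tumors. The 120 bases before the annotated start of each gene are given below from RefSeq, on the plus strand of GRCm38.p6, at chr7:43966631-43966750 for Klk1b1, chr7:44012558-44012677 for Klk1b26 and chr7:43995757-43995876 for Klk1b11. The capitals mark the motif TTTAAA, which reads the same on both strands.
Klk1b1: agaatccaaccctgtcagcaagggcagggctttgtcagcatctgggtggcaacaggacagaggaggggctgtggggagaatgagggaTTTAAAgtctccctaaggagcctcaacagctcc
Klk1b26: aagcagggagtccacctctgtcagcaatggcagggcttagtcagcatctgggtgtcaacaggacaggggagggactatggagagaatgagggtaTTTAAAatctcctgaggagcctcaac
Klk1b11: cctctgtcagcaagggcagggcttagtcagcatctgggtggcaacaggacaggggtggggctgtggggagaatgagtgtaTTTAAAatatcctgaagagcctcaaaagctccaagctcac
Each window holds the motif 1 time. Of 32851 promoter windows of that length, 5.2% held it, against 8 of the 154 member genes that had a window, or 5.19%. The full RefSeq windows were aligned locally, which keeps only the best-matching stretch of each pair. There the Klk1b26 and Klk1b11 promoters were identical at 91.6% of 286 aligned positions. Klk1b1 and Klk1b26 were identical at 86.5% of 296, and Klk1b1 and Klk1b11 at 84.9% of 291. Only promoters were compared here, and the probe sequences were not checked against these genes. A probe may read more than 1 family member, so the gene behind each kallikrein signal is uncertain.

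The members were dim probes. Their mean raw signal over the 6 tumors had a median of 93.7, with quartiles of 85.5 and 113 and a range from 74.1 to 293. Over all 16042 probes detected on the 6 tumors the median was 282, with quartiles of 138 and 732. Of the members, 146 (57.3%) read under 100, against 11.2% of all probes detected on the tumors. Only 15 members read above 150 and 4 above 200. The lowest signal that counted as detected was between 66.4 and 76.5 on the 12 arrays, so most members stood little above the limit. The median member read 97.7, 88.0 and 86.7 on the control tumors, 98.5, 94.2 and 103 on the hyperglycemic tumors, and 58.3 and 59.5 on wild-type controls 2 and 3. It read 60.0, 56.3 and 57.2 on the hyperglycemic glands, and 80.8 on wild-type control 1. After normalization the medians on the log2 scale lay between 5.84 and 6.08 on the tumors and between 4.69 and 4.85 on the 5 glands.

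Because the members were not detected on any hyperglycemic gland, the fold of hyperglycemic tumors over hyperglycemic glands has only a lower bound. It sets each gland array at its lowest detected level, or at the measured level of the probe if higher, after normalization and on the scale that includes an offset of 16. The bound had a median of 1.71 over the members and ran from 1.12 to 6.38. It reached 1.5-fold for 174 members, 2-fold for 86 and 4-fold for 8. The members past 4-fold were C2cd4a, Slc38a3, Prol1, Ankrd22, Foxi1, Chad, Slc28a3 and Klk1b26.

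The highest bound was that of C2cd4a, a nuclear protein known from endothelial and islet cells. It read 255, 203 and 251 on the control tumors, 242, 244 and 408 on the hyperglycemic tumors, 210, 65.8 and 66.7 on the wild-type glands and 59.1, 42.6 and 63.6 on the hyperglycemic glands. It was at least 6.38-fold higher in hyperglycemic tumors than in hyperglycemic glands, and wild-type control 1 read above control tumor 2 and below the other tumors. Of the 2 further C2cd4a probes on the array, 1 was detected on no tumor and 1 on hyperglycemic tumor 1 alone, at 86.4. The C2cd4a bound therefore rests on the member probe alone. Slc38a3, a transporter of glutamine and other amino acids across the cell membrane, read 289, 310 and 322 on the control tumors and 289, 323 and 225 on the hyperglycemic tumors. It read 176, 57.3 and 68 on the wild-type glands and 64.7, 46.8 and 65.8 on the hyperglycemic glands, a bound of 6.10-fold. Its tumor groups overlapped and no gland reached the tumors. Ankrd22, an ankyrin repeat protein, read 231, 144 and 178 on the control tumors, 238, 185 and 242 on the hyperglycemic tumors and 167 on wild-type control 1, with a bound of 4.75-fold. Timd2, a cell-surface receptor for ferritin in the mouse, read 185, 144 and 158 on the control tumors, 171, 167 and 184 on the hyperglycemic tumors and 131 on wild-type control 1. Its 6 tumors lay within a narrow band, above all 6 glands.

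At the edge of the rule the separation was small. In all, 20 members sat on the last step inside the threshold on a tumor or a gland. Ticam1, an adaptor of Toll-like receptors, averaged 75.1 over the tumors and 62.4 over the 5 glands, and Larp7, which binds the 7SK RNA, averaged 78.8 and 63.8. Another 249 probes missed the rule on 1 array, 103 of them on a tumor and 146 on a gland, and 23 of these missed by 1 step. Fut8, which adds core fucose to glycoproteins, averaged 94.1 over the tumors and 62.0 over the 5 glands and was left out for a detection p of 0.00962 on 1 gland. A probe of Arfgef3 averaged 99.4 and 68.6 and was left out the same way, although both probes read brighter in the tumors than several members.

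Choosing the probes again without 1 array and reading them on the array left out gives a measure that the choice did not use. Without 1 tumor, the rule chose between 262 and 292 probes, and 87.3% to 97.3% of them were detected on the tumor left out. Without 1 of the 5 glands it chose between 274 and 305, and 6.93% to 16.4% of them were detected on the gland left out. Wild-type control 1 detected 198 of the 255 members, or 77.6%, far closer to a tumor left out than to a gland left out. Across these choices it detected between 70.9% and 79.0%.

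The level of the members on wild-type control 1 lay between the tissues. On a scale per member where 0 is the mean log2 level of the other 5 glands and 1 the mean of the 6 tumors, it had a median position of 0.673, with quartiles of 0.53 and 0.817. It read above all 5 other glands for 239 members and below all 6 tumors for 168, and both held for 152. It read above the tumor mean for 22 members and under the mean of the 5 glands for 5. The share detected on it rose with the level in tumors. With the members in 5 equal bins of 51 by tumor signal, it was 39.2% in the lowest bin, then 76.5%, 80.4%, 96.1% and 96.1% in the bins above. The median position changed less, at 0.622, 0.668, 0.654, 0.69 and 0.709 from the lowest bin to the highest. The 57 members not detected on it had a median tumor signal of 83.2, against 101 for the 198 detected. The mirror set, 366 probes detected on the 5 glands and on no tumor, showed the converse, since 233 of them (63.7%) were not detected on wild-type control 1 and its median position was 0.654 of the way to the tumors. Its marker sums above moved the same way, and their part in these positions was not tested.

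In 4 members the reading was higher on wild-type control 1 than on all 6 tumors. The brightest was Pigr, the receptor that carries IgA across secretory epithelium into milk and mucus. Pigr read 170, 124 and 123 on the control tumors, 178, 190 and 195 on the hyperglycemic tumors and 232 on wild-type control 1. The other 5 glands read at most 65.9, so the 3 wild-type glands did not form one level. H13, a signal peptide peptidase, read 104 on wild-type control 1 and at most 92 on the tumors, and the other 2 of the 4 members had no gene name. Brighter H13 probes that are not members did not read highest there. The brightest of these read 1370 on wild-type control 1 and 1280 to 1950 on the tumors, and the next 1310 and 1360 to 1880. Slc28a3, a nucleoside transporter, read 171 on wild-type control 1 and between 153 and 256 on the tumors. The epithelial integrin subunit Itgb6 read 131 there and between 106 and 143 on the tumors. In contrast, Bglap, the bone hormone osteocalcin, and Tacr3, the neurokinin B receptor, were among the brightest members not detected on it, at 65.5 and 69.1.

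The probe is the unit here, not the gene. Of the 193 named genes, 134 had further probes on the array that were not members, 271 in all. For 60 of these genes, or 44.8%, another probe was detected on all 5 glands. Of the further probes, 83 were detected on all 6 tumors and all 5 glands. Their genes were chosen through a probe detected in tumors and not in the 5 glands. The direction of these further probes is therefore no independent support. A further 113 were detected on none of the 11 arrays. Tfap2a and Tfap2b, AP-2 transcription factors of skin, neural crest and mammary epithelium, show the case. The member probe of Tfap2a read 98.5, 77.6 and 87.4 on the control tumors and 115, 108 and 102 on the hyperglycemic tumors. Another probe of Tfap2a read between 1120 and 1430 on the tumors and between 216 and 292 on the 5 glands. One probe of Tfap2b other than the member read between 768 and 1370 on the tumors and between 307 and 370 on the 5 glands. Both genes were thus read in the glands by other probes, at a lower level than in tumors. Rcan1, an inhibitor of calcineurin, went the other way, with a probe at 539 to 645 on the tumors and 620 to 748 on the 5 glands.

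The 7 probes for 6 secreted and mucosal proteins were all detected on wild-type control 1. Prol1, also called a proline-rich lacrimal protein, gave 2 member probes. The brighter read 124, 148 and 106 on the control tumors, 369, 233 and 191 on the hyperglycemic tumors, 149, 63.6 and 66.7 on the wild-type glands and 60.8, 48.4 and 52.2 on the hyperglycemic glands. The second read 86.9, 109 and 94 on the control tumors and 263, 144 and 146 on the hyperglycemic tumors. In both probes every hyperglycemic tumor read above every control tumor, and hyperglycemic tumor 1 was highest. Bpifb5, a relative of the lipid-binding BPI proteins, read 249, 264 and 93.1 on the control tumors and 148, 148 and 159 on the hyperglycemic tumors. Its control tumors spanned both sides of the hyperglycemic ones. Csn1s2b, a casein of milk, read 152, 182 and 147 on the control tumors and 136, 123 and 139 on the hyperglycemic tumors, without overlap. The membrane mucin Muc15 averaged 144 over the tumors and Reg1, a secreted lectin of the pancreas and gut, averaged 88.2.

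Among the serine proteases, the brighter kallikrein probes read lowest on control tumors 2 and 3. Klk1b26 read 183, 73.3 and 79.6 on the control tumors, 241, 208 and 149 on the hyperglycemic tumors, and 158, 54.6 and 51.3 on the wild-type glands. Klk1b1 read 175, 86.8 and 80.7 on the control tumors and 178, 205 and 151 on the hyperglycemic tumors, with 115 on wild-type control 1. Its other member probe read 170, 76.4 and 85 and then 166, 185 and 144. Control tumor 1 stood with the hyperglycemic tumors in each, so the groups overlapped. A second Klk1b26 probe, detected on some of the 5 glands and so not a member, read 313, 94.4 and 96.7 on the control tumors, 415, 388 and 265 on the hyperglycemic tumors and 282 on wild-type control 1. The member of Klk1b11 was dimmer, at 101, 68.5 and 70 on the control tumors and 100, 89.5 and 92.7 on the hyperglycemic tumors. Hpn, the membrane serine protease hepsin, averaged 92.5 over the tumors.

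Kallikreins, Prol1 and Egf are abundant in salivary and lacrimal glands, and a list of 18 genes known from those glands was set beside them after the values were seen. It shares 5 genes with the members. Its summed raw signal was between 8421 and 10994 in the control tumors, between 12270 and 18757 in the hyperglycemic tumors and between 1716 and 3190 in the 5 glands, with 10199 on wild-type control 1. Klk1, Klk1b22, Klk1b9, Smr2, Smgc and Lpo of that list were not detected on any array. The water channel Aqp5 was the brightest gene of the list in the tumors, with signals of 5200 to 8090. Bhlha15, a transcription factor of secretory cells, read 1510, 1280 and 1420 on the control tumors and 2060, 1940 and 1630 on the hyperglycemic tumors in its brightest probe. Pip, the prolactin-inducible protein, read 827, 232 and 496 on the control tumors, 3460, 1360 and 3880 on the hyperglycemic tumors, 2520, 430 and 107 on the wild-type glands and 58.1, 46.4 and 61.9 on the hyperglycemic glands. Its hyperglycemic tumors read above its control tumors, but so did wild-type control 1, and wild-type control 2 read above control tumor 2. Aqp5, Bhlha15 and Pip, none of them members, together held most of the summed signal of the list on every tumor. The part of other gland tissue in the Prol1, Egf and kallikrein signals was not tested.

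The skeletal matrix members were 5 probes for 5 genes, and control tumor 2 read far above the other tumors for Col2a1 and Bglap. Col2a1, the main collagen of cartilage, read 98.9, 351 and 102 on the control tumors and 100, 84.4 and 119 on the hyperglycemic tumors. Bglap read 103, 299 and 72.5 on the control tumors and 106, 76.9 and 98 on the hyperglycemic tumors. Control tumor 2 was highest in both, and the other 5 tumors of each lay together. Chad, chondroadherin of the cartilage matrix, did not follow them, with 164, 240 and 167 on the control tumors and 240, 208 and 186 on the hyperglycemic tumors. Col9a1, a collagen that coats cartilage fibrils, read between 104 and 176 over the tumors and Gdf5, a joint morphogen, between 77.2 and 94.9. Of 21 cartilage and bone genes listed after the values were seen, 9 were not detected on any array, among them Acan, Col10a1, Ibsp, Sp7 and Dmp1. The summed signal of that list was between 8473 and 10934 in the control tumors and between 9715 and 11257 in the hyperglycemic tumors. Sox9, a regulator of cartilage and of ductal epithelium, held most of that sum, with 5440 to 7380 on the tumors. The part of skeletal tissue in the Col2a1 and Bglap signals was not tested.

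Of the 15 transporter and channel probes, for 12 genes, 1 had tumor groups that did not overlap, namely Slc25a18. Over all tested probes, 15.0% had such groups. Slc30a2, which loads zinc into secretory vesicles and milk, read 159, 163 and 145 on the control tumors, 153, 153 and 159 on the hyperglycemic tumors and 131 on wild-type control 1. Its 6 tumors lay close together and the groups overlapped. Slc28a3 read 191, 166 and 153 on the control tumors and 173, 256 and 192 on the hyperglycemic tumors. The channel Trpm6, which carries magnesium, read 149, 92.5 and 86.3 and then 105, 88.3 and 154, so 1 tumor in each group was high. The 3 Slc2a9 probes averaged 106, 89.7 and 84.5 over the tumors. Atp12a, a proton and potassium pump, read 84.4, 94.4 and 106 on the control tumors and 78, 85.7 and 73.3 on the hyperglycemic tumors.

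All 14 transcription regulators were detected on wild-type control 1. Foxi1, the regulator of ionocytes, was the brightest, with 180, 123 and 129 on the control tumors, 204, 205 and 233 on the hyperglycemic tumors, 109 on wild-type control 1 and at most 68.7 on the other glands. The hyperglycemic tumors all read above the control tumors. Zic4, a zinc-finger factor of the developing brain, read 156, 146 and 172 and then 180, 132 and 184. Its further probes on the array were detected on no tumor, with signals of 35.7 to 62.4 there, so the Zic4 reading rests on the member probe alone. Tead4, the DNA-binding partner of YAP, read 115, 112 and 97.3 on the control tumors and 78.2, 93.8 and 99.9 on the hyperglycemic tumors, groups that overlapped in raw signal but not after normalization. Tumor means of Eya2, Sox5, Otx1, Esrrg and Ovol1, which act in development or metabolism, lay between 92.6 and 122.

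Ligands and receptors gave 20 probes for 16 genes. C5ar2, a second receptor for the complement fragment C5a, read 96, 72.1 and 83.7 on the control tumors, 136, 134 and 129 on the hyperglycemic tumors, 73.6, 60 and 57.2 on the wild-type glands and 57, 47.9 and 53.7 on the hyperglycemic glands. Egf, the epidermal growth factor, read 92.8, 84.7 and 83.4 on the control tumors, 147, 116 and 125 on the hyperglycemic tumors and 88.9 on wild-type control 1. Neither gene had overlapping tumor groups. Erbb3, a neuregulin receptor with little kinase activity of its own, read 98, 90.3 and 98.3 on the control tumors and 126, 94.2 and 142 on the hyperglycemic tumors, so 1 hyperglycemic tumor fell among the controls. Erbb3 was the single member on the 7 lists of proliferation, luminal, milk, metabolism, ErbB, matrix and developmental genes. Of the ErbB and neuregulin list, 11 genes had a probe, 6 had one detected on all 6 tumors, and 0 of its 12 tested probes passed the test for hyperglycemia in tumors in either direction, with 3 at an unadjusted p under 0.05. Of the other 6 lists, none of the tested probes passed in either direction, with 1 of 16 milk probes, 1 of 15 glucose and lipid metabolism probes and 0 in the remaining 4 lists at an unadjusted p under 0.05, against 3.73% of all tested probes. Their median differences were -0.24 log2 units for proliferation, 0.08 for the luminal list, -0.20 for milk, 0.13 for glucose and lipid metabolism, -0.11 for matrix and -0.13 for developmental genes, and 0.10 for the ErbB list, against 0.0016 over all tested probes. The interleukin-1 co-receptor Il1rap gave 2 probes, which averaged 137 and 121 over the tumors, and the 3 Vipr1 probes averaged 127, 118 and 82.8.

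The 6 cell division and chromatin probes had a median SD of 0.16 log2 units over the tumors, against 0.20 over all members. Smc4, a condensin subunit, read 92.1, 93.2 and 89.1 on the control tumors, 96.5, 92 and 101 on the hyperglycemic tumors and 94.9 on wild-type control 1, with at most 68.2 on the other glands. Kifc1, a mitotic kinesin, averaged 93.3 over the tumors, Fanci, of the Fanconi repair pathway, 89.1, and Psrc1, a spindle protein, 88.4. Among the 9 metabolic enzymes, Car9, the cell-surface carbonic anhydrase known as a hypoxia target, read 186, 156 and 103 on the control tumors and 110, 164 and 257 on the hyperglycemic tumors. Its second member probe read 85.9, 70.9 and 68.6 and then 87.2, 88 and 97.4. The brighter probe had overlapping groups and the dimmer did not. Gnmt and Ahcy, which use and clear S-adenosylmethionine in the methyl cycle, averaged 93.3 and 92.3.

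The SD of a member's log2 level over the 6 tumors had a median of 0.20 and ran from 0.046 to 0.99, against a median of 0.14 over all probes detected on the 6 tumors. It was above 0.5 for 13 members, or 5.1%, against 1.88% of all those probes. The members with the largest SD were Bglap, Col2a1, Klk1b26, both probes of Prol1 and of Klk1b1, Bpifb5, 1700012B07Rik and 1 probe without a gene name. In 127 members, or 49.8%, the SD of the raw signal over tumors was within 2 times the mean standard error over beads, against 35.8% of all probes detected on the tumors. The smallest SD was that of a probe of Sh3tc2, a protein of nerve myelination. It read 81.4, 73.1 and 76.7 on the control tumors and 79.5, 77.7 and 78.4 on the hyperglycemic tumors, close to the detection limit. A brighter Sh3tc2 probe, detected on all 5 glands and so not a member, varied more. That probe read 737, 553 and 491 on the control tumors and 552, 720 and 783 on the hyperglycemic tumors. The highest tumor reading fell on hyperglycemic tumor 3 for 77 members, or 30.2%, against 20.4% of all probes detected on the tumors, and on control tumor 3 for 19, or 7.45%, against 15.2%.

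The comparison of hyperglycemic with control tumors asked how tumors of mice with high blood glucose and PANIC-ATTAC differ from those of PyMT controls. It was fitted with limma over all 18427 tested probes and all 12 arrays, and the rule did not use the split of the tumors by condition. The members leaned towards higher signal in hyperglycemic tumors, but no member passed the test. Of the 255 members, 0 had an adjusted p under 0.05 after Benjamini-Hochberg adjustment over all tested probes, where 0.0% of all tested probes did. The smallest adjusted p was 0.906. At an unadjusted p under 0.05 there were 9 members, 3.53%, against 3.73% of all tested probes, with 7 higher (2.75% against 1.94%) and 2 lower. Neither share was far from the background. Wild-type control 1 entered the pooled spread of that fit, and without it 43 members, 16.9%, had an unadjusted p under 0.05, against 6.84% of all tested probes, with 32 of the 43 higher and 0 called. With array weights, which gave that gland a weight of 0.143, limma called 1 member, C5ar2, at an adjusted p of 0.0373, and 21 of all tested probes.

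The 3 hyperglycemic and 3 control tumors did not overlap in log2 level for 44 members, or 17.3%, against 15.0% of all tested probes. In 34 members, 13.3%, the hyperglycemic tumors were all higher, against 7.44% of all tested probes, and in 10 they were all lower, against 7.6%. The difference was above 0 in 169 members, or 66.3%, against 50.4%. Its median was 0.08 log2 units over the members and 0.0016 over all tested probes, with a range from -0.83 to 1.18. It went past 1.5-fold upward for 9 members and downward for 3, and past 2-fold for 3. The 95% confidence interval of a member reached a median of 1.39-fold to either side of its estimate, against 1.27-fold over all tested probes. For 220 members (86.3%) it lay wholly within 2-fold of no difference on this scale. The scale includes the offset of 16, which pulls differences of dim probes towards 0. These intervals therefore do not exclude a 2-fold change in the transcripts of dim members. These counts describe the members and carry no test of their own. The adipocyte markers summed to 3023, 4359 and 5328 on the control tumors and to 2526, 3320 and 1907 on the hyperglycemic tumors. Over the 6 tumors that order was the reverse of the order of the median member signals. The part of fat content in these counts was not tested.

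C5ar2 had the smallest p. Its log2 level was 5.74 ± 0.25 in control and 6.61 ± 0.09 in hyperglycemic tumors (SD, n = 3 each). The difference was 0.87 (SE 0.17, 95% interval 0.49 to 1.25), with an adjusted p of 0.906 by limma. The Prol1 probes differed by 1.16 (SE 0.44) and 1.04 (SE 0.41), and Egf by 0.70 (SE 0.26). Rab26, a GTPase of secretory granules, read 94.8, 94.2 and 79.2 on the control tumors and 135, 123 and 125 on the hyperglycemic tumors, a difference of 0.63 (SE 0.26). St6galnac4, a sialyltransferase, differed by 0.51 (SE 0.17), Acsl4, an acyl-CoA synthetase for arachidonic acid, by 0.51 (SE 0.23), Sorbs2, an actin adaptor, by 0.43 (SE 0.19) and Rcan1 by 0.42 (SE 0.20). Each of these had an adjusted p of 1 by limma apart from C5ar2, and in each all 3 hyperglycemic tumors read above all 3 controls.

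Other probes of these genes gave smaller differences in most cases. The further Rab26 probe, detected on all 6 tumors, read 294, 282 and 262 on the control tumors and 502, 472 and 498 on the hyperglycemic tumors, a difference of 0.79 (SE 0.40). For St6galnac4 the 3 further probes gave 0.13, 0.37 and 0.23, for Acsl4 the further probe gave 0.32, for Sorbs2 0.34 and for Rcan1 0.09. All were positive and none passed the test.

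Lower values in hyperglycemic tumors were smaller in size. Dppa1, a developmental pluripotency gene, read 103, 124 and 128 on the control tumors and 90.3, 75.7 and 102 on the hyperglycemic tumors, a difference of -0.68 (SE 0.28). Tead4 differed by -0.47 (SE 0.27), Csn1s2b by -0.42 (SE 0.29), Gnmt by -0.34 (SE 0.22), Fanci by -0.31 (SE 0.23), Ahcy by -0.28 (SE 0.17), Fam98b, of a tRNA ligase complex, by -0.26 (SE 0.15) and Slc25a18, a mitochondrial glutamate carrier, by -0.21 (SE 0.18). In each all 3 hyperglycemic tumors read below all 3 controls after normalization, with an adjusted p of 1 by limma. A further Csn1s2b probe gave -0.53 (SE 0.51), while further probes of Tead4 and Ahcy gave -0.11 and 0.01. The largest difference downward, -0.83 (SE 0.51) for Col2a1, and the -0.66 (SE 0.52) of Bglap rested on control tumor 2, and their groups overlapped.

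By role, the median difference was 0.83 over the 5 serine protease probes, 0.39 over the 7 secreted and mucosal probes, 0.22 over the 10 metabolic enzyme probes, 0.15 over the 20 ligand and receptor probes and 0.12 over the 14 transcription regulators. It was 0.01 over the skeletal matrix probes, -0.08 over the transporters and -0.15 over the cell division probes. The groups of serine proteases overlapped in every probe, with control tumor 1 among the hyperglycemic samples in the kallikreins. The largest single difference, 1.18 for Klk1b26, had an SE of 0.61 and an interval from -0.15 to 2.51.

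In the glands the rule held 5 arrays low, so the contrast of hyperglycemic with control glands rests on wild-type control 1. By limma, 0 members had an adjusted p under 0.05 and 0.0% of all tested probes did. At an unadjusted p under 0.05 there were 41 members, 16.1%, against 10.4% of all tested probes. All 41 read lower in hyperglycemic glands, where 5.52% of all tested probes did so, and 37 of them were detected on wild-type control 1. The median difference was -0.31 log2 units, and it was -0.07 when wild-type control 1 was left out. The arrays left then are all ones that the rule held under the detection limit, so no count of members is read from them.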

How the data were processed

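Total RNA from 12 mouse samples was measured on single-colour Illumina BeadChips. Per the file headers, the deposited values are bead-averaged raw intensity per probe on a linear scale, with the count of beads, the standard error over beads and a detection p-value, and the submitters' processing notes name GenomeStudio 2011.1. The authors also deposited processed intensity values, used as an alternative; their preparation is not given in the sources used. All value columns were matched to samples by name.

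From the raw intensities, background was corrected by normexp, using the detection p-values in place of control probes (nec of limma 3.58.1 in R 4.3.3, offset 16), followed by log2 and quantile normalization over the 12 arrays. The offset pulls differences of dim probes towards 0. The 18427 probes detected on all 3 arrays of at least 1 group were fitted with lmFit and eBayes over 4 groups, with Benjamini-Hochberg adjustment over all of them and calls at an adjusted p under 0.05. The fit was tested on simulated data. Arrays averaged 37.1 to 44.7 beads a probe and detected 16902 to 18489 probes; the number of arrays limits the precision.

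Genes came from the platform's annotation, with 34885 probes paired with 1 gene, 18 with several and 10378 not listed; symbols were checked by gene ID against RefSeq (GRCm38.p6). Named members follow a rule: the brightest in tumors, the smallest p in each direction among non-overlapping tumor groups, the brightest on wild-type control 1 and the brightest not detected there, the largest and smallest spread, and those at the threshold, up to 10 each, with every member on a gene list. Role examples outside it were chosen after their values were seen. The members and all lists were chosen with earlier results of these data known. Alternatives were other background, scaling, filter and model settings, the replicate block and leaving out each array.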

Additional observations from a re-analysis of the deposited data

Results flagged for a closer look

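In 57 members that the naming rule covers, each of the 6 tumors was compared with the other 5 by the gap to its nearest neighbour over the whole range of the log2 levels. A ratio above 0.625 set a tumor apart, which chance does in about 1 of 20 groups, and 3 of the 57 members held such a tumor. Some of the 57 were named for a large or small spread over these tumors, Bglap and Col2a1 among them, so that chance rate is no yardstick for the 3. The 6 tumors hold both conditions.

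Control tumor 2 stood apart in Col2a1, with a ratio of 0.755 and a raw signal of 351 against 84.4 to 119 on the other 5 tumors. It also stood apart in Bglap, with a ratio of 0.707 and a raw signal of 299 against 72.5 to 106. Hyperglycemic tumor 3 stood apart in C2cd4a, with a ratio of 0.667 and a raw signal of 408 against 203 to 255.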

How the results depend on the processing

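The main choices left 0 members called for hyperglycemia in tumors and 0 in glands, and all alternatives kept both at 0, leave-one-out fits included, except array weights, which called 1 member in tumors. This was C5ar2, at an adjusted p of 0.0373 by limma; its adjusted p is 0.906 in the fit without weights. Of the 20 members with the smallest p among non-overlapping tumor groups, under 23 alternatives each, 459 values kept direction and side of the threshold, 1 passed it (C5ar2) and 0 reversed. These members were chosen for groups without overlap, so leaving out 1 array could not reverse a direction. The filter, replicate block and variance trend settings leave the difference itself unchanged. The count of kept directions is therefore no measure of robustness. The counts of members at an unadjusted p under 0.05, an outcome added after seeing the data, moved more. In tumors the 9 (3.53%, against 3.73% of all tested probes) became 16 with an offset of 50 (6.27% against 3.66%), 59 with array weights (23.1% against 13.1%), 43 when tumors were fitted alone (16.9% against 8.98%) and 14 with the replicate block (5.49% against 3.01%), and leaving out 1 array gave 4 to 43, with 43 without wild-type control 1 (16.9% against 6.84%), 20 without control tumor 1 (7.84% against 4.12%), 16 without wild-type control 2 (6.27% against 3.85%) and 4 without control tumor 3 (1.57% against 2.52%). In glands the 41 (16.1% against 10.4%) became 10 with an offset of 50 (3.92% against 10.2%), 26 with array weights (10.2% against 17.5%) and 12 in a fit of the glands alone (4.71% against 5.22%), and leaving out 1 array gave 10 (without wild-type control 1) to 107 (without wild-type control 2, 42.0% against 15.3%), with 78 without wild-type control 3 (30.6% against 13.2%) and 26, 12 and 24 without hyperglycemic glands 1, 2 and 3 (10.2% against 9.81%, 4.71% against 9.65% and 9.41% against 8.83%); the replicate block gave 53 (20.8% against 10.1%). The rule held every gland but wild-type control 1 low, so the count without that array tests nothing. Whether the sample numbers mark pairs is not given in the sources used. Deviations of same-numbered arrays from their group means correlated at -0.203, 0.0888 and -0.333 in tumors and at 0.102, -0.00803 and -0.0828 in glands. Unlike-numbered arrays gave -0.239 to 0.393 in tumors and -0.178 to 0.125 in glands. With 3 arrays per group these correlations cannot settle whether samples were paired. Array weights gave wild-type control 1 a weight of 0.143, and fits without it or of the tumors alone take its spread out of the pooled error. The number of members was 88 at a detection p of 0 on the tumors and 57 if wild-type control 1 had to miss the probe too. Wild-type control 1 detected 83 of those 88 (94.3%), and 142 of the 192 chosen at a detection p of 0.05 (74.0%). Leaving out 1 array of the rule gave 262 to 305 members, of which 200 to 241 were detected on wild-type control 1. Signals near the detection limit bound what the dim members can show.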

Other observations

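Control tumor 2 was also the highest tumor for some probes of skeletal genes that are not members, and not for others. Comp, the cartilage oligomeric matrix protein, read 106, 523 and 94.3 on the control tumors and 153, 146 and 133 on the hyperglycemic tumors. Bglap2, a near-identical neighbour copy of Bglap, so that the copy behind each signal is uncertain, read 127, 403 and 88.2 and then 127, 72.9 and 127. Further probes of Col2a1 read 90.6, 228 and 85.8, and 75.2, 156 and 83.6, on the control tumors. In contrast, Col9a2 read 1500, 1260 and 942 on the control tumors and 1500, 1380 and 1340 on the hyperglycemic tumors, and Sox9 read 7110, 5520 and 5440 and then 5810, 6300 and 7380. Brighter probes of Sox5, a further probe of Col9a1 and a probe of Col11a1 also had their highest tumor elsewhere. Smr3a, a salivary peptide gene, read 68.6, 766 and 43.2 on the control tumors and between 43.6 and 51.9 on the hyperglycemic tumors, and a second probe read 112 on control tumor 2 and at most 58.4 on the other tumors. The kallikrein members were low on that tumor, at 73.3 for Klk1b26, so Smr3a and the kallikreins did not move together there. These genes come from the lists made after the values were seen and were not tested.

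Of the salivary and lacrimal list, Dcpp1 read 689, 428 and 273 on the control tumors and 570, 352 and 3640 on the hyperglycemic tumors, high on hyperglycemic tumor 3 alone. Amy1, an amylase, read lower in tumors than in glands in its brighter probe, with 68.8 to 143 on the tumors, 314 on wild-type control 1 and 232 to 624 on the other 5 glands.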
